A study of Drosophila melanogaster with 34 samples.

Results

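The 100 genes described here stood out in *scrib* mutant wing disc tumors 8 days after egg laying (AEL). They were chosen from the values themselves. Of 17641 genes listed, 6738 had a mean of at least 5 CPM (the reads of a gene scaled to a common library size) in the 8 day tumors. These were ranked by the mean log2(CPM + 1) at 8 days minus the larger of the means at 4 and 14 days, and the first 100 were taken. The difference in the tumors of 4, 8 and 14 days is therefore given as a description, and tests were made only between groups that the ranking did not use.

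RNA of wing imaginal discs was sequenced in 27 libraries of tumors and 7 libraries of control discs. The tumors came from larvae of genotype scrib-/-FRT82B (stock scrib1 FRT82B/TM6B, in which TM6B is a balancer chromosome) at 4, 5, 6, 8, 10, 12 and 14 days AEL. The control discs (WT) came from larvae of genotype FRT82B (strain BL2035) at 4 and 5 days AEL. Each group had 4 libraries, except for tumors at 6 days and control discs at 4 days, which had 3. FRT82B, a recombination site on the right arm of the third chromosome, was carried by tumors and controls alike. The mutation was carried by the whole larva and not by the disc alone, and the controls end at 5 days. The study calls the libraries of a group biological replicates, and the number of discs or larvae behind each is not given in the sources used here. The p-values below rest on the spread between libraries of a group, estimated for each gene over all 9 groups together. They do not measure the spread within only the groups compared. Depth was 18437402 to 26619424 gene reads a library. A count of 3 reads, the least treated as distinct from 0, made 0.116 to 0.166 CPM. All 15 wing disc epithelium markers examined (among them *nub*, *vg*, *ap* and *hth*) were detected in every library. Their summed level was 2552 to 2811 CPM in 8 day tumors. Control discs had 2833 to 3356 CPM at 4 days and 4304 to 4521 CPM at 5 days. Single markers went both ways. At 5 days, 3 of the 15 were higher and 12 lower in tumors than in control discs (limma adjusted p below 0.05). Of all genes tested, 39.0% were higher and 32.5% lower. In bulk RNA, fewer cells of a type and less RNA per cell cannot be told apart.

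Scrib is a scaffold protein that keeps the apical and basal sides of epithelial cells apart, and discs without it lose their layered form and grow into tumors while the larva stays in an extended larval life. Wing discs are small epithelial sacs that lie in the larval blood beside other organs, such as the fat body, which stores nutrients and secretes storage proteins and antimicrobial peptides. Cells take up amino acids through transporters in their membranes.

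The name of a peak at 8 days held for part of the genes. Over the 7 tumor ages, the highest mean log2(CPM + 1) lay at 8 days for 53 of the 100, at 10 days for 32, at 6 days for 12 and at 5 days for 3, and for none at 4, 12 or 14 days. The 53 became 41 without replicate 2 of 8 days, 48 without replicate 4, 57 without replicate 1 and 63 without replicate 3. Of all 6738 genes with at least 5 CPM at 8 days, 592 (8.79%) had their highest tumor mean at 8 days. Every 8 day library lay above every library of 4 and 14 days for 61 of the 100, against 4.79% of the 6738, a count that the ranking itself favors. Every 8 day library lay above every library of 6 and 10 days for 4 genes, against 0.816%. The ranking did not use the 6 and 10 day values, but it did use those of 8 days, so it favors this count as well. These 4, named after their values were seen, were *Lsm11*, a component of the histone messenger processing particle, *Brd*, a small inhibitor in the Notch pathway, *CG1665* (now *Marc*) and *CG33169*, all at low to moderate level. *Lsm11* and *Marc* are neighbors on 2R, both within bases 9838434 to 9841163, and whether they are separate cases was not tested. *Lsm11*, for example, had 11.0, 9.12 and 9.24 CPM at 6 days, 11.5, 11.5, 12.3 and 11.5 CPM at 8 days and 9.70, 10.0, 8.07 and 10.2 CPM at 10 days. Taken singly, every 8 day library exceeded every 6 day library for 49 genes (23.5% of the 6738) and every 10 day library for 14 genes (17.8% of the 6738). Both counts also rest on the 8 day values used in the ranking. The 100 genes are thus better described as higher at 8 days than at either end of the time course.

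The rank score, the difference on the log2(CPM + 1) scale, ranged between 3.59 for *Obp99b* and 0.37 for *CG9662*, with a median of 0.53. It was at least 1 for 18 genes and under 0.5 for 40. The larger of both end points was 14 days for 65 genes and 4 days for 35. The 3 genes just inside the limit were *CG32039* (now *Svip*), *CG10217* (now *udt*) and *CG9662*, with scores of 0.38, 0.37 and 0.37. The 3 just outside were *knrl*, a nuclear receptor gene related to *kni*, *CG5171* and *RpL41*, with 0.37, 0.37 and 0.37, so the limit does not mark a gap. By the annotation, 99 of the 100 were matched to a current gene, 24 on 3R, 24 on 3L, 23 on 2R, 16 on 2L and 12 on X, and 13 of them now carry another symbol. The remaining one is listed as Sep-01 and is given no further name here. Of the 100, 49 carry only a CG number in the files.

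**Figure D1:**
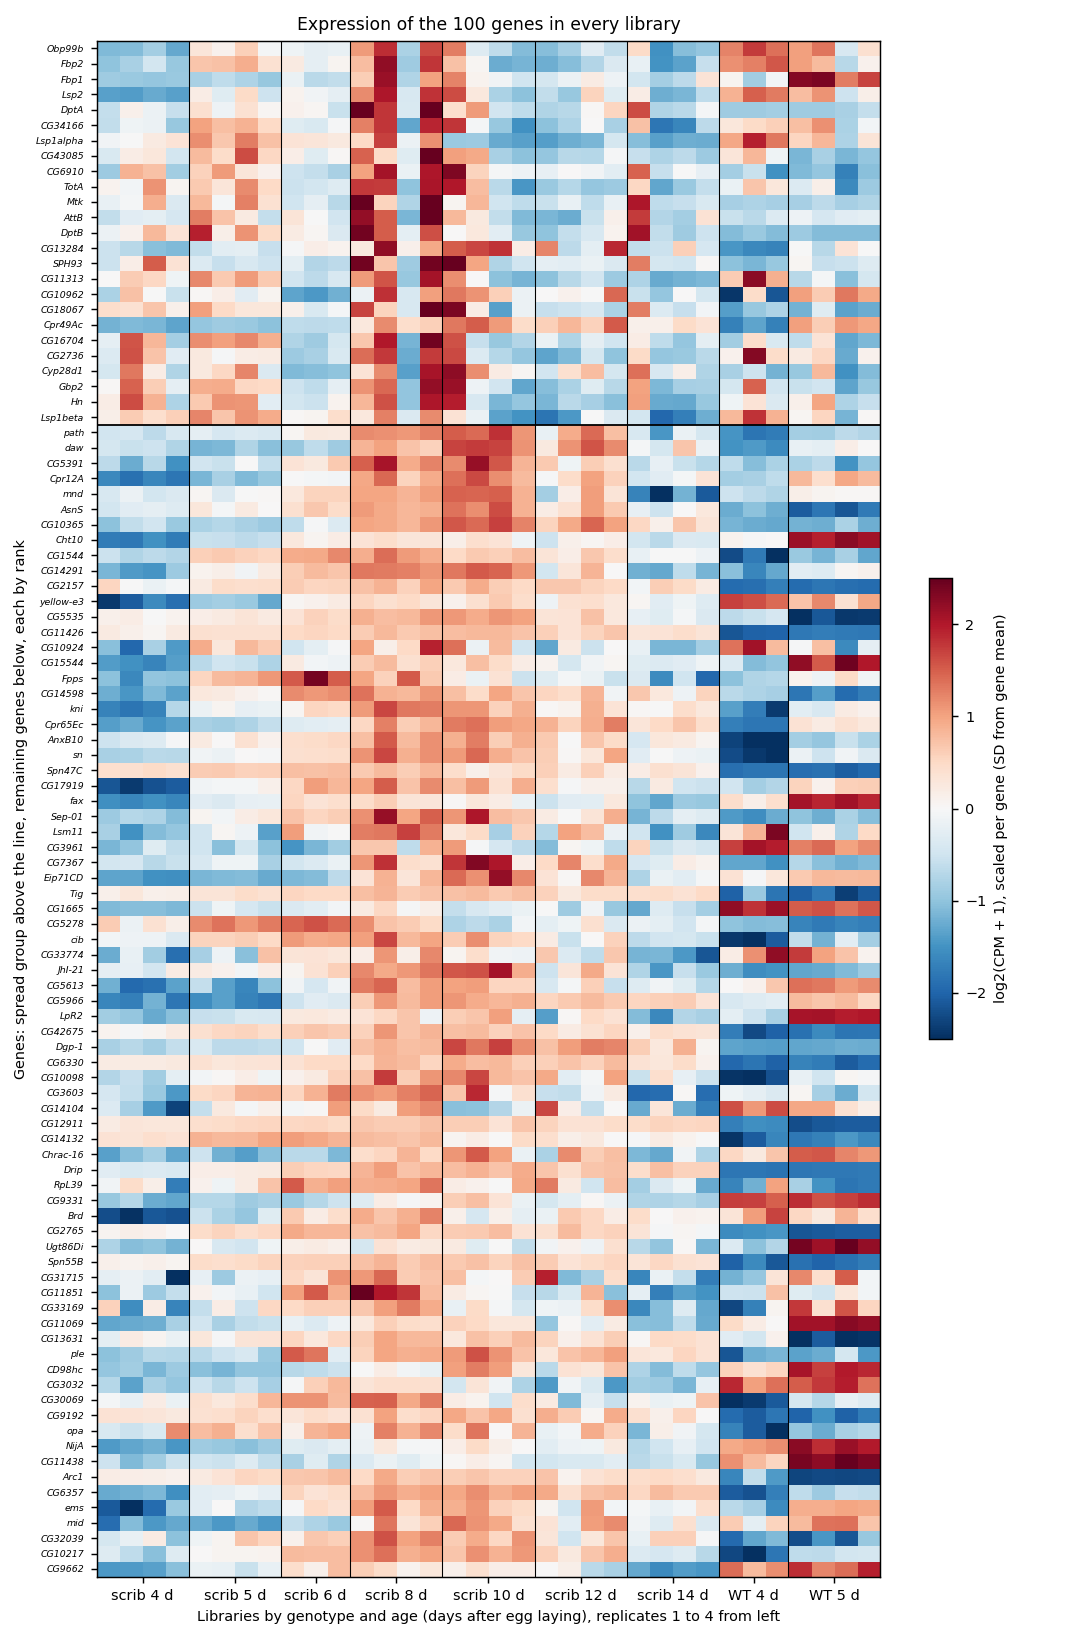
Expression of the 100 genes (rows) in the 34 libraries (columns), as log2(CPM + 1) scaled per gene to SD from its own mean; red is above and blue below. For 24 of the 25 genes above the line and 32 of the 75 below it, replicate 3 was the lowest library of 8 day tumors. The 75 genes had a highest to lowest ratio of at most 2.98 at 8 days.

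A split within the 4 libraries of 8 days was used to describe the 100 genes as 2 groups. For 25 genes, called the spread group here, the highest 8 day library was at least 3 times the lowest, a limit chosen after the values were seen. The ratios just below and just above it were 2.98 and 3.36, so the limit divides a range. Replicate 3 was the lowest 8 day library for 24 of these 25, the exception being *Cpr49Ac*, and for 22 of them it lay below the larger of the means at 4 and 14 days. Among the other 75 genes replicate 3 was the lowest 8 day library for 32. None of the 25 had all 8 day libraries above all libraries of 4 and 14 days. Of the other 75 genes, 61 had all 8 day libraries above all those of 4 and 14 days. The split itself favors this contrast, because a wide range at 8 days puts the lowest 8 day library far down. The high scores belong mostly to the spread group, with a median score of 1.08 in it against 0.51 in the other 75, and 16 of the first 25 ranks. The median SD of log2(CPM + 1) among the 8 day libraries was 1.64 for the first 25 ranks, 0.143 for ranks 26 to 100 and 0.0701 for all 6738 genes. Without replicate 3 of 8 days the ranking kept 83 of the 100 genes, and without replicate 2 it kept 84. Ranked instead by the lowest 8 day library minus the highest library of 4 and 14 days, a choice made after seeing the data, 49 of the 100 stayed among the first 100, led by *path*, *mnd* and *CG5391*.

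**Figure D2:**
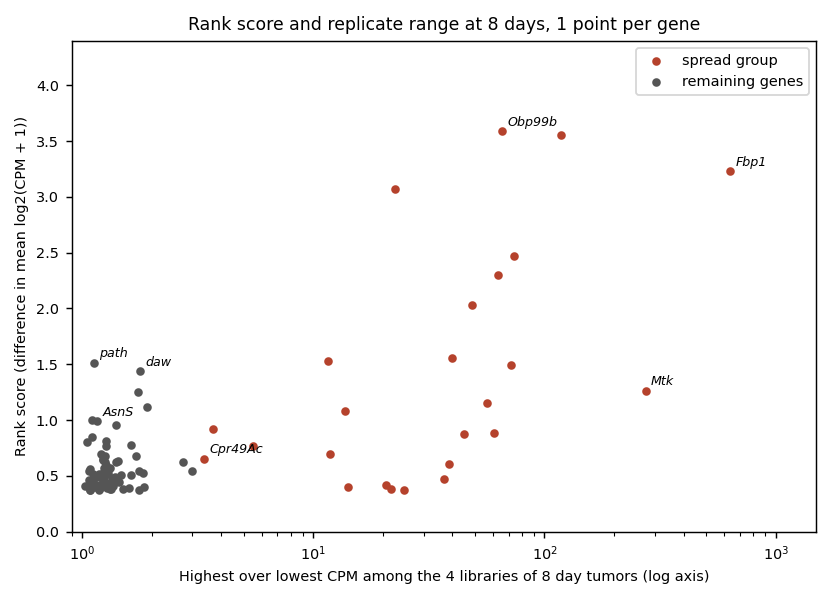
Rank score (vertical axis, difference in mean log2(CPM + 1)) against the ratio of the highest to the lowest CPM among the 4 libraries of 8 day tumors (horizontal, log axis), 1 point per gene. The scores above 1.6 all belong to genes of the spread group, whose ratios reach 634 for *Fbp1*, while *path* had a score of 1.51 at a ratio of 1.12.

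Genes of the larval fat body led the spread group. Of 7 fat body markers in a list written for this tissue, 5 were among the 100: *Lsp1alpha*, *Lsp1beta* and *Lsp2*, storage proteins that the fat body secretes into the blood, *Fbp1*, a receptor for their uptake, and *Fbp2*, a relative of alcohol dehydrogenase. In the 8 day tumors *Fbp1* (chromosome 3L, bases 14094589 to 14098053, BDGP6 annotation) had 23.4, 492, 0.776 and 50.7 CPM in replicates 1 to 4. It had 0.356, 0.270, 0.185 and 0.273 CPM at 4 days, 0.580, 1.17, 0.669 and 0.230 at 5 days, 4.44, 1.03 and 1.28 at 6 days, 80.4, 8.00, 5.33 and 1.84 at 10 days, 2.18, 4.66, 10.1 and 4.83 at 12 days and 2.16, 0.442, 1.10 and 13.8 at 14 days. Control discs had 7.65, 0.412 and 5.53 CPM at 4 days and 632, 701, 87.5 and 195 CPM at 5 days. Of the 8 day tumors only replicate 2, at 492 CPM, lay within the range of the 5 day control discs. The other 8 day libraries lay below all 5 day control discs, and every younger tumor lay far below them. *Fbp1* was accordingly lower in tumors than in control discs at 5 days, with a log2 fold change of -7.51 (SE 1.07, limma adjusted p = 3.57e-07), and lower in 10 day tumors than in 5 day control discs, with -4.79 (SE 1.07, limma adjusted p = 2.51e-04). Within control discs it rose by 6.10 (SE 1.16, limma adjusted p = 4.91e-05) at 5 days relative to 4 days.

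The other fat body genes were also lowest in replicate 3 of the 8 day tumors. *Lsp2* had 19.5, 52.6, 2.33 and 41.2 CPM in 8 day tumors, 0.102, 0.0539, 0.231 and 0.109 CPM at 4 days and 5.51, 0.295, 0.429 and 1.57 CPM at 14 days, with 13.5, 28.0 and 22.5 CPM in control discs at 4 days and 11.7, 18.1, 1.89 and 5.27 CPM at 5 days. At 4 days 3 of the 4 tumor libraries were under the value of 3 reads and thus not distinct from 0, and replicate 3 of 8 days lay within the range of the 14 day tumors. *Fbp2* had 27.01, 207, 1.76 and 114.7 CPM at 8 days, 1.37, 2.10, 4.06 and 1.59 CPM at 4 days and 6.33, 0.196, 0.477 and 3.29 CPM at 14 days. *Lsp1alpha* had 40.3, 36.2 and 32.5 CPM at 6 days, 54.9, 682, 14.0 and 209.9 CPM at 8 days and 2.04, 2.13, 0.507 and 0.242 CPM at 10 days. Its 10 day libraries were all below every 6 and 8 day library, and it fell in 10 day tumors relative to 6 day tumors with a log2 fold change of -4.18 (SE 0.94, limma adjusted p = 4.71e-04). *Lsp1beta* had 143, 995, 40.4 and 854 CPM at 8 days and 169, 61.2, 5.38 and 3.58 CPM at 10 days. Both *Lsp1alpha* and *Lsp1beta* had their highest tumor mean at 5 days and not at 8 days.

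The summed level of the 7 fat body markers was 385, 2786, 84.4 and 1526 CPM in replicates 1 to 4 of 8 days, 426, 119, 18.9 and 10.5 CPM at 10 days and 107, 3.241, 8.39 and 36.2 CPM at 14 days. It was 274 to 660 CPM at 4 days, 863 to 2001 CPM at 5 days, 210 to 412 CPM at 6 days and 10.3 to 141 CPM at 12 days, against 657 to 4324 CPM in control discs of 4 days and 108 to 1116 CPM of 5 days. The 2 markers that are not among the 100 had the same low library at 8 days. These are *apolpp*, the precursor of the lipid carrier of the blood, with 60.8, 89.5, 6.82 and 106 CPM, and *Lsp1gamma*, with 56.0, 268, 18.3 and 150.3 CPM. *Lsp1gamma* was at 0 in all 3 control libraries of 4 days and at most 0.671 CPM in those of 5 days. Of the 7 markers, 4 were called higher and 1 lower in tumors than in control discs at 5 days, against 39.0% and 32.5% of all genes tested, with a median log2 fold change of 2.16 against 0.06 over all genes. The calls of *Lsp1alpha* and *Lsp1beta* were lost without control replicate 3 (adjusted p = 0.206 and 0.108). That of *Lsp1alpha* was also lost without tumor replicate 1 (0.0688) or 3 (0.0843) and by edgeR (0.0613) and DESeq2 (0.115). In 10 day tumors against 5 day controls 1 was called higher and 2 lower, against 33.1% and 32.2% of all genes, with a median of -1.42 against 0.02. The part of fat body RNA in the values of the spread group was not tested.

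**Figure D3:**
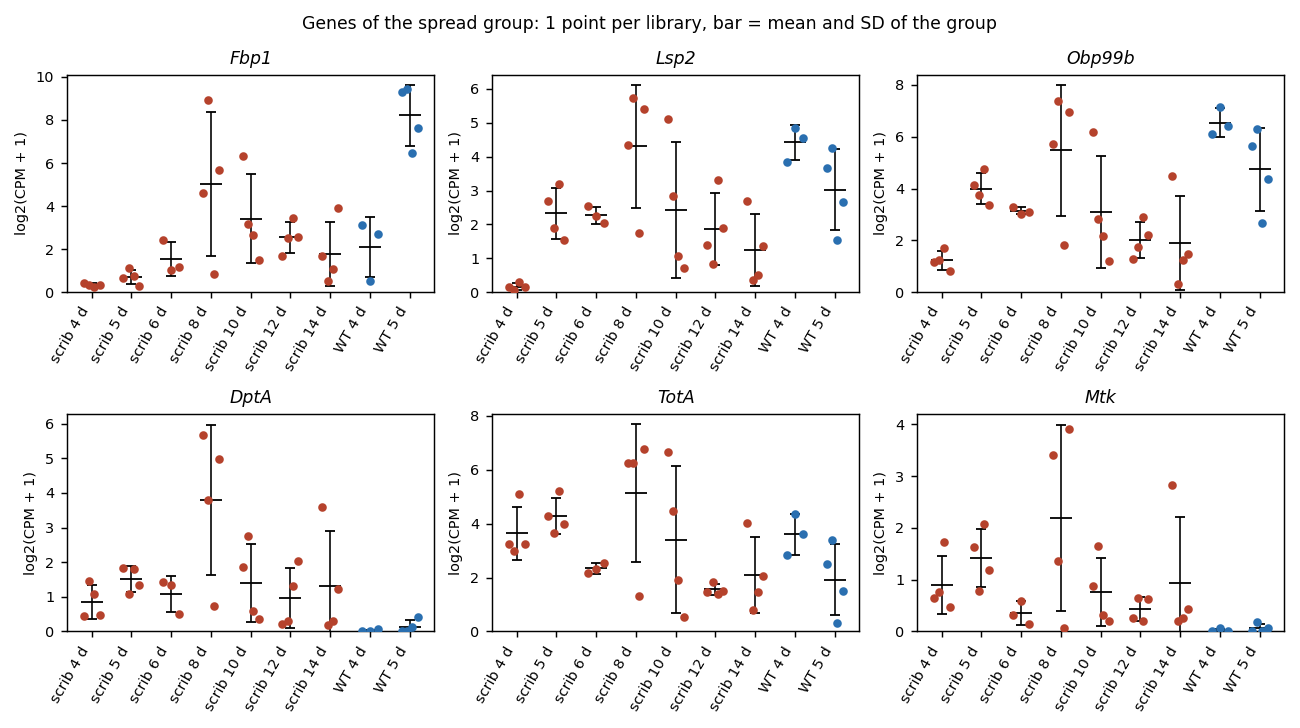
Level of 6 genes of the spread group, as log2(CPM + 1), in every library of tumors (red, 4 to 14 days AEL) and control discs (blue, 4 and 5 days). Points are libraries and bars the mean and SD of the group; at 8 days 1 library, replicate 3, lay below the others for each of the 6 genes.

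Antimicrobial peptide genes formed the next block of the spread group. Of 20 such genes in the list, 6 reached a mean of 5 CPM at 8 days and 4 were among the 100: *DptA* and *DptB*, the diptericins that act on Gram-negative bacteria, *AttB*, an attacin, and *Mtk*, which encodes Metchnikowin. *DptA* and *DptB* are neighbors on 2R (18865765 to 18866260 and 18867391 to 18867895), and since paralogs such as these are alike in sequence, reads that fit both may have been lost from the counts. *DptA* had 49.5, 12.9, 0.672 and 30.6 CPM in the 8 day tumors, 1.68, 1.54 and 0.411 CPM at 6 days and 2.64, 5.82, 0.507 and 0.290 CPM at 10 days. The 14 day tumors had 11.0, 0.147, 0.238 and 1.317 CPM, with replicate 1 far above the rest, and the 7 control libraries lay at or under 0.335 CPM. *Mtk* had 9.68, 1.58, 0.0517 and 14.1 CPM at 8 days, where replicate 3 was under the value of 3 reads, and 6.14, 0.147, 0.191 and 0.354 CPM at 14 days, again with replicate 1 highest. *AttB* had 9.33, 5.81, 0.310 and 17.5 CPM and *DptB* 11.3, 5.50, 0.827 and 5.93 CPM at 8 days.

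In the comparisons that the ranking did not use, *DptB* was higher in tumors than in control discs at 5 days, with 7.77, 1.43, 3.92 and 2.07 CPM in tumors against 0.137, 0, 0 and 0 CPM in control discs and a log2 fold change of 2.04 (SE 0.51, limma adjusted p = 7.57e-04). *Mtk* had 1.36 (SE 0.56, limma adjusted p = 0.0321) in the same comparison, a call that was lost with a pseudocount of 5 (0.42, adjusted p = 0.151) and without the filter on low counts (adjusted p = 0.0532). It was also lost without tumor replicate 1 (adjusted p = 0.0646) or 3 (0.0969), and without control replicate 1 (0.0560), 3 (0.0560) or 4 (0.0524). Of the 10 antimicrobial peptide genes that passed the filter, 7 were called higher in tumors than in control discs at 5 days, against 39.0% of all genes tested, with a median log2 fold change of 1.71 against 0.06 over all genes. In 10 day tumors against 5 day controls 2 of the 10 were called higher, against 33.1% of all genes, with medians of 0.77 and 0.02. In 10 day relative to 6 day tumors 3 were called lower, against 24.7% of all genes. *TotA*, a stress peptide of the Turandot family, followed the same libraries. It had 76.2, 74.4, 1.499 and 107 CPM at 8 days, 101, 21.4, 2.79 and 0.435 CPM at 10 days and 15.5, 0.736, 1.76 and 3.14 CPM at 14 days. Replicate 3 of 8 days, replicates 3 and 4 of 10 days and all libraries of 12 days were at or under 2.79 CPM.

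Replicate 3 was also the lowest 8 day library for the remaining genes of the spread group, except for *Cpr49Ac*. *Obp99b*, a member of the odorant-binding protein family and the first by rank, had 52.2, 166, 2.53 and 123 CPM at 8 days, 71.1, 6.12, 3.45 and 1.31 CPM at 10 days and 67.0, 141 and 83.6 CPM in control discs at 4 days, with which the high 8 day tumors overlapped. *CG6910*, now *Miox* for the enzyme inositol oxygenase, had 15.0, 46.3, 3.98 and 43.7 CPM at 8 days and 59.6, 9.21, 4.72 and 4.16 CPM at 10 days. *Hn*, phenylalanine hydroxylase, had 4.38, 8.05, 0.517 and 11.2 CPM, and *Gbp2*, a growth-blocking peptide gene, had 4.99, 6.22, 0.724 and 10.2 CPM at 8 days. Across the group, replicate 1 was the highest of the 10 day libraries for 19 of 25 genes and the highest of the 14 day libraries for 21 of 25, and replicate 4 of 10 days was the lowest for 20. Among the other 75 genes replicate 1 was the highest for 11 at 10 days and for 10 at 14 days, and replicate 4 of 10 days was the lowest for 42. The mean log2(CPM + 1) of the 25 genes was 1.65 in replicate 3 of 8 days and 4.13 to 5.15 in the other 3. It lay between 1.30 and 4.20 at 10 days and between 1.02 and 3.00 at 14 days, so the groups overlapped. Summed midgut markers were 571 CPM in replicate 1 of 10 days and 11.1 to 22.3 CPM in the other 3, and 71.1 to 101 CPM in all 8 day libraries. The 8 day sum, with a median of 72.8 CPM, came mostly from 1 gene, *Amy-p*, with a median of 72.1 CPM. Every other midgut marker had a median of at most 0.298 CPM at 8 days. Summed hemocyte markers were 187 to 269 CPM at 8 days, with replicate 3 lowest. The part of these cell types in the result was not tested.

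Among the other 75 genes, several act in the supply of amino acids. They were put side by side after their values were seen and are not tested as a group. *path* encodes Pathetic, an amino acid transporter of the SLC36 family, *mnd* and *JhI-21* encode light chains and *CD98hc* the heavy chain of heterodimeric amino acid transporters, and *AsnS* encodes asparagine synthetase. *path* (chromosome 3L, bases 9494555 to 9505328) had 245, 253, 218 and 255 CPM at 4 days, 340.0, 388 and 381 CPM at 6 days, 701, 681, 656 and 737 CPM at 8 days, 865, 808, 1053 and 662 CPM at 10 days, 295, 592, 809.5 and 532 CPM at 12 days and 255, 130.5, 297 and 251 CPM at 14 days. All 8 day libraries were more than 2 times every library of 4 and 14 days, but those of 10 days overlapped with them or were higher. Between groups not used in the ranking, *path* rose in 10 day relative to 6 day tumors with a log2 fold change of 1.18 (SE 0.22, limma adjusted p = 4.27e-05). The 5 day control discs had 193, 189.8, 217 and 209 CPM, and *path* was higher in 10 day tumors by 2.05 (SE 0.20, limma adjusted p = 3.10e-10). 

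*mnd* (chromosome 3L, bases 14985100 to 14991667), known for the small discs of its mutants, had 65.0, 73.9, 62.5 and 66.4 CPM at 4 days, 136, 136, 127 and 141 CPM at 8 days, 176, 175, 179 and 128 CPM at 10 days, 50.8, 88.0, 139.7 and 95.5 CPM at 12 days and 32.5, 16.0, 42.3 and 25.8 CPM at 14 days. The 14 day libraries were below every other library, control discs included. It fell in 12 day relative to 10 day tumors with a log2 fold change of -0.88 (SE 0.20, limma adjusted p = 0.00956). *AsnS* (chromosome 3L, bases 21173118 to 21174973) had 96.5, 88.7, 82.9 and 86.3 CPM at 8 days and 116, 103, 139.8 and 85.1 CPM at 10 days. It was higher in tumors than in control discs in both comparisons, with 57.5, 46.0, 55.1 and 47.7 CPM in tumors at 5 days against 11.6, 14.0, 11.1 and 14.3 CPM in control discs (log2 fold change 1.94 (SE 0.15, limma adjusted p = 6.06e-13)) and 3.01 (SE 0.15, limma adjusted p = 2.24e-17) at 10 days. It rose in 10 day relative to 6 day tumors by 0.70 (SE 0.16, limma adjusted p = 4.27e-04) and fell in 12 day relative to 10 day tumors, with -0.65 (SE 0.15, limma adjusted p = 0.00827).

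The subunits of the heterodimeric transporters differed in their relation to control discs. *JhI-21* had 211, 198, 204 and 219 CPM in 8 day tumors and was higher in tumors than in control discs at 5 days, with 161, 157, 149 and 159.6 CPM in tumors against 106, 108, 112 and 118 CPM in control discs and a log2 fold change of 0.49 (SE 0.09, limma adjusted p = 1.54e-05). *CD98hc* had 319.5, 340.1, 313 and 300.2 CPM in 8 day tumors and was lower in tumors than in control discs at 5 days, with 226, 217, 231 and 230.4 CPM in tumors against 632, 563, 616 and 597 CPM in control discs and a log2 fold change of -1.41 (SE 0.09, limma adjusted p = 1.03e-14). Both rose in 10 day relative to 6 day tumors, *JhI-21* by 0.47 (SE 0.10, limma adjusted p = 1.73e-04) and *CD98hc* by 0.72 (SE 0.10, limma adjusted p = 3.06e-07). *CD98hc* in tumors was thus below the 5 day control discs at 5 days and, at 448, 487, 450.5 and 352 CPM, again at 10 days.

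Larger differences were measured for *daw*, *CG10365* and *Dgp-1*. *daw* encodes Dawdle, a secreted ligand of the Activin branch of TGF-beta signaling. It had 3.36, 5.47 and 3.75 CPM at 6 days, 43.4, 53.6, 36.1 and 30.0 CPM at 8 days, 129, 143, 130.1 and 62.5 CPM at 10 days, 19.3, 62.9, 114 and 67.6 CPM at 12 days and 13.0, 7.32, 35.0 and 11.3 CPM at 14 days. The 6 and 8 day libraries did not overlap, and *daw* rose in 10 day relative to 6 day tumors with a log2 fold change of 4.45 (SE 0.41, limma adjusted p = 3.17e-10), the largest among the 100 in that comparison. In 5 day tumors it was lower than in 5 day control discs, with 2.32, 2.497, 4.54 and 2.85 CPM in tumors against 10.7, 9.84, 17.2 and 14.0 CPM in control discs (-1.78 (SE 0.38, limma adjusted p = 1.19e-04)). *CG10365* had 2.52, 6.36 and 4.00 CPM at 6 days, 24.5, 23.7, 20.01 and 28.2 CPM at 8 days and 49.9, 42.0, 60.6 and 33.7 CPM at 10 days, against 0.600 to 1.89 CPM in all control libraries. It rose in 10 day relative to 6 day tumors by 3.20 (SE 0.29, limma adjusted p = 2.46e-10). *Dgp-1*, a GTP-binding protein gene, had 186, 309 and 233 CPM at 6 days, 662, 765, 686 and 705 CPM at 8 days and 1767, 1229.9, 1864 and 1034 CPM at 10 days. It was higher in 10 day than in 6 day tumors by 2.59 (SE 0.22, limma adjusted p = 6.94e-11).

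**Figure D4:**
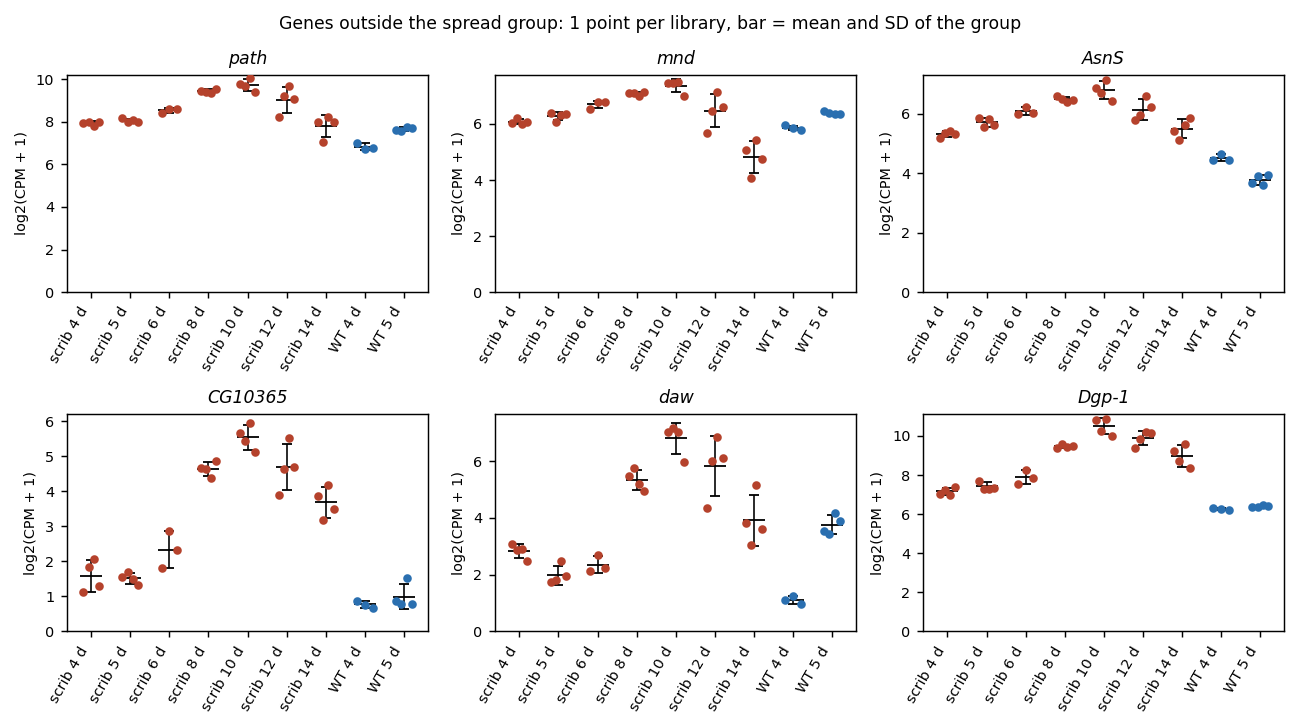
Level of 6 genes outside the spread group, as log2(CPM + 1), in every library of tumors (red, 4 to 14 days AEL) and control discs (blue, 4 and 5 days). Points are libraries and bars the mean and SD of the group; the mean was highest at 10 days for all 6, and the libraries of 12 and 14 days lay farther apart than those of 8 days.

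The lowest libraries at the later ages were shared by 8 of the genes above. For *path*, *mnd*, *JhI-21*, *CD98hc*, *AsnS*, *CG10365*, *daw* and *Dgp-1*, replicate 4 was the lowest of the 10 day libraries for 8 of 8 and replicate 1 the lowest of the 12 day libraries for 8 of 8. These 8 were picked after their values were seen. Over all 75 genes outside the spread group, replicate 4 of 10 days was the lowest for 42, and at 12 days replicate 1 was the lowest for 28 and replicate 2 for 29. Replicate 4 of 10 days and replicate 1 of 12 days had 733 and 924 CPM of *roX1*, a noncoding RNA of dosage compensation in males, against 405, 55.7 and 328 CPM in the other 10 day libraries and 330.4, 334 and 738 CPM in the other 12 day libraries. The 14 day libraries had 663 to 1031 CPM of *roX1* and the 8 day libraries 180 to 367 CPM. The part of the make-up of the libraries by sex in these results was not tested.

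Cuticle and chitin genes lay in both the spread group and the rest. Of 126 cuticle protein genes, 9 reached 5 CPM at 8 days and 3 were among the 100, *Cpr12A*, *Cpr49Ac* and *Cpr65Ec*, all of the family with a chitin-binding domain, of which *Cpr49Ac* belongs to the spread group. *Cpr12A* had 11.0, 14.2, 11.3 and 12.8 CPM at 5 days, 26.0, 25.4 and 25.1 CPM at 6 days, 53.6, 75.4, 39.4 and 51.6 CPM at 8 days and 18.5, 21.2, 25.5 and 34.03 CPM at 14 days. It rose in 6 day relative to 5 day tumors with a log2 fold change of 1.00 (SE 0.21, limma adjusted p = 0.00215). *Cpr65Ec* had 11.4, 12.3 and 13.0 CPM at 6 days, 37.0, 101, 41.9 and 55.8 CPM at 8 days and 106, 118, 74.2 and 67.5 CPM at 10 days, with a rise of 2.76 (SE 0.26, limma adjusted p = 4.50e-10) in 10 day relative to 6 day tumors. *Cht10*, a chitinase, had 103, 100.2, 123 and 104 CPM at 4 days, 444, 384 and 422 CPM at 6 days, 473, 502, 457 and 459 CPM at 8 days and 262, 225, 285 and 281 CPM at 14 days. It was lower in tumors than in control discs at 5 days, with a log2 fold change of -2.80 (SE 0.11, limma adjusted p = 2.25e-19), and still lower in 10 day tumors, with -1.99 (SE 0.11, limma adjusted p = 1.70e-15). Control discs of 5 days had 1718, 1503, 1870.4 and 1667 CPM. All 4 genes rose in control discs at 5 days relative to 4 days, by 1.56 for *Cpr12A*, 4.64 for *Cpr49Ac*, 3.96 for *Cpr65Ec* and 2.17 for *Cht10* (limma adjusted p of at most 2.98e-07). Over the whole cuticle list, of which 51 genes were tested, 6 were called higher and 3 lower in 6 day than in 5 day tumors, against 4.50% and 3.94% of all genes. In 10 day relative to 6 day tumors 15 were called higher and 8 lower, against 24.3% and 24.7%. *yellow-e3*, of the yellow protein family, rose in 6 day relative to 5 day tumors by 1.40 (SE 0.21, limma adjusted p = 3.72e-05).

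Other genes outside the spread group have known roles in the cell skeleton, the matrix and transcription. *sn*, the gene of the actin-bundling protein Fascin, had 416, 418, 433 and 429.8 CPM at 4 days, 602, 605 and 609 CPM at 6 days, 750.0, 885, 699 and 755 CPM at 8 days and 489, 530.1, 511 and 506 CPM at 14 days. The lowest 8 day library lay above every library of 4, 6 and 14 days. *Drip*, an aquaporin water channel gene, had 186, 164, 174 and 166 CPM at 4 days, 666, 825, 570.3 and 651 CPM at 8 days and 423, 598, 486 and 484 CPM at 14 days. It rose in 6 day relative to 5 day tumors with a log2 fold change of 0.59 (SE 0.11, limma adjusted p = 6.05e-04), and was higher in tumors than in control discs at 5 days, with 306, 309, 318 and 329.6 CPM in tumors against 32.5, 32.5, 32.6 and 33.9 CPM in control discs (3.22 (SE 0.10, limma adjusted p = 4.57e-22)). *Tig*, which encodes the integrin ligand Tiggrin, had 355, 394, 304 and 339 CPM in 8 day tumors and was higher in 10 day tumors than in 5 day control discs by 4.87 (SE 0.23, limma adjusted p = 8.97e-18). *kni*, a transcription factor of the nuclear receptor family, had 81.5, 98.8 and 97.4 CPM at 6 days, 120.4, 151, 133 and 131 CPM at 8 days and 81.4, 80.1, 94.8 and 88.6 CPM at 14 days, with the 8 day libraries above both. *ems*, *opa* and *mid*, further transcription factors, had their highest 8 day library at 149.9, 79.5 and 14.0 CPM. The serpins *Spn47C* and *Spn55B*, of a family of protease inhibitors, were higher in tumors than in control discs at 5 days by 4.92 (SE 0.15, limma adjusted p = 3.61e-22) and 2.79 (SE 0.09, limma adjusted p = 6.94e-22). *Spn47C* fell in 10 day relative to 6 day tumors, with -0.80 (SE 0.17, limma adjusted p = 1.83e-04).

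Genes with only a CG number gave the extremes of several comparisons. *CG12911* had 849, 803, 795 and 986 CPM in 8 day tumors and was higher in tumors than in control discs at 5 days, with 515, 559, 620.4 and 651 CPM in tumors against 1.09, 1.55, 1.79 and 1.82 CPM in control discs, a log2 fold change of 7.84 (SE 0.16, limma adjusted p = 9.57e-27). *CG5966* had 1.31, 1.78, 1.05 and 0.828 CPM at 5 days, 5.43, 7.25 and 6.62 CPM at 6 days and 19.1, 31.1, 22.9 and 29.9 CPM at 8 days, and its rise of 1.74 (SE 0.18, limma adjusted p = 4.31e-08) was the largest among the 100 in 6 day relative to 5 day tumors. *CG5278*, now *sit*, ran the other way. It had 9.72, 10.8 and 9.44 CPM at 6 days, 7.69, 5.25, 4.86 and 4.21 CPM at 8 days and 1.09, 1.27, 1.07 and 2.51 CPM at 10 days, and fell in 10 day relative to 6 day tumors, with a log2 fold change of -2.18 (SE 0.19, limma adjusted p = 1.27e-10). *CG5391* had 5.58, 5.33 and 6.57 CPM at 6 days, 9.94, 13.0, 7.50 and 8.76 CPM at 8 days and 3.21, 4.17, 3.43 and 3.14 CPM at 14 days. *CG1544* had 21.9, 19.5, 20.4 and 19.8 CPM at 4 days, 45.4, 57.6, 49.2 and 45.3 CPM at 8 days and 26.2, 28.6, 28.6 and 26.8 CPM at 14 days. *CG14291*, now *Sgsh* for a lysosomal sulfatase, had the closest replicates of the first 30 ranks, with 137, 137, 136 and 131 CPM at 8 days against 74.3, 72.9, 85.5 and 75.2 CPM at 14 days.

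Between neighboring tumor ages that the ranking did not use, 20 of the 100 genes rose at 6 days and 17 fell at 12 days. In 6 day relative to 5 day tumors, 20 of the 100 were called higher and 0 lower by limma, against 4.50% higher and 3.94% lower of all 9637 genes tested (6.10% and 2.58% of the 6738 genes with at least 5 CPM at 8 days). At an unadjusted p below 0.05 the counts were 38 and 6, and edgeR's quasi-likelihood test and DESeq2 called 20 and 22 higher and 0 lower. A fit to these 2 groups alone called 46 higher and 14 lower. The median log2 fold change was 0.18 for the 100 and 0.00 over all genes. None of the 25 genes of the spread group was called, where the median lay below 0. In 10 day relative to 6 day tumors, 36 were called higher and 11 lower, against 24.3% higher and 24.7% lower of all genes (27.4% and 31.8% of the 6738), with medians of 0.24 and 0.00. In 12 day relative to 10 day tumors, 0 were called higher and 17 lower, against 2.87% higher and 2.72% lower of all genes (3.29% and 3.68% of the 6738), with medians of -0.31 and -0.01. At an unadjusted p below 0.05 the counts were 2 higher and 43 lower, and edgeR and DESeq2 called 0 higher and 14 and 21 lower. The 17 included *mnd*, *JhI-21*, *AsnS*, *CD98hc* and *path*. None belonged to the spread group, where the choice of genes again works against a call and the median was -0.70. The ages of 6, 10 and 12 days lie between those used in the ranking, so a rise before and a fall after 8 days are the directions that the choice of the genes favors. The count of genes that fell at 12 days depended on single libraries. Without replicate 1 or 2 of 10 days 8 or 7 genes were called lower, and without replicate 1 or 2 of 12 days 11 or 10. A fit to these 2 groups alone called 0 lower, with 28 lower at an unadjusted p below 0.05. For *CD98hc* (main log2 fold change -0.35 (SE 0.09, limma adjusted p = 0.0179)) the call was lost without replicate 1, 2 or 3 of 10 days (adjusted p = 0.0526, 0.0880 and 0.0519) and without replicate 1 of 12 days (0.0801). For *path* (-0.67 (SE 0.20, limma adjusted p = 0.0441)) it was lost without any one of replicates 1, 2 and 3 of 10 days (adjusted p = 0.0908, 0.0870 and 0.140) or of replicates 1, 2 and 4 of 12 days (0.197, 0.0588 and 0.0668). For *mnd*, *JhI-21* and *AsnS* it held without each library in turn, with main values of -0.88, -0.50 and -0.65.

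**Figure D5:**
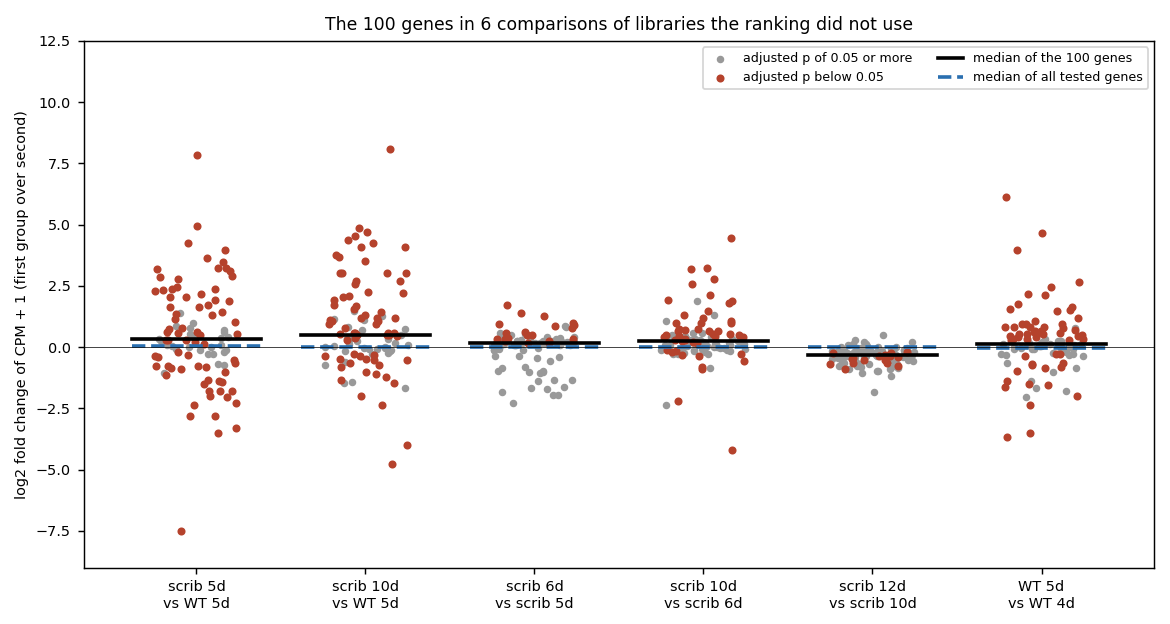
Log2 fold change on log2(CPM + 1) of the 100 genes (points, 1 per gene, red where the limma adjusted p was below 0.05) in 6 comparisons of groups that the ranking did not use, first group over second. Black lines are medians of the 100 genes and dashed blue lines medians of all 9637 tested genes; the black line lay lowest, at -0.31, in 12 day relative to 10 day tumors.

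Relative to control discs the 100 genes did not go one way. In tumors against control discs at 5 days, 43 of the 100 were called higher and 30 lower, against 39.0% higher and 32.5% lower of all genes (39.7% and 37.3% of the 6738), with medians of 0.32 for the 100 and 0.06 over all genes. In 10 day tumors against the same 5 day control discs, 48 were called higher and 20 lower, against 33.1% and 32.2% of all genes (36.9% and 37.6% of the 6738), with medians of 0.51 and 0.02. Both comparisons share the 4 control libraries, and the second also compares different ages. *CG12911*, *Spn47C*, *Tig*, *Drip* and *AsnS* were among those higher in both. *Fbp1*, *Cht10* and *CD98hc* were among those lower in both. As a description, the mean at 8 days was above both control groups for 66 of the 100, and below both for 10.

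Part of the 100 genes also changed with age in control discs. At 5 relative to 4 days, 41 were called higher and 17 lower in control discs, against 26.6% and 27.2% of all genes (31.8% and 31.2% of the 6738), with medians of 0.12 and -0.02. *daw*, for example, had 10.7, 9.84, 17.2 and 14.0 CPM at 5 days against 1.14, 1.36 and 0.943 CPM at 4 days, a log2 fold change of 2.67 (SE 0.41, limma adjusted p = 2.00e-06). *sn* rose by 0.94 (SE 0.08, limma adjusted p = 1.25e-11), and *kni* by 0.95 (SE 0.13, limma adjusted p = 3.47e-07). *Lsp1alpha* fell, with a log2 fold change of -3.51 (SE 0.94, limma adjusted p = 0.00234) and 59.3, 113, 3.16 and 37.7 CPM at 5 days against 148, 1097 and 303 CPM at 4 days. Of 19 ecdysone response genes in the list, *Eip71CD* (now *MsrA*, methionine sulfoxide reductase) alone was among the 100. It had 34.05, 34.8 and 41.7 CPM at 6 days, 63.6, 79.2, 62.5 and 78.2 CPM at 8 days and 100.1, 89.1, 138 and 91.2 CPM at 10 days, and rose in 10 day relative to 6 day tumors by 1.46 (SE 0.13, limma adjusted p = 3.17e-10). Of the 18 ecdysone response genes tested, 11 were called higher in that comparison, against 24.3% of all genes tested.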

How the data were processed

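The 34 libraries of wing discs were sequenced from total RNA as 150 base paired-end reads. The authors cleaned the reads, aligned them with STAR to the BDGP6 genome, counted them per gene with featureCounts and made CPM values with edgeR. By default featureCounts ignores strand and drops reads that map to several places, so overlapping genes and near-identical paralogs (the *Lsp1* and diptericin genes) are uncertain. The deposited CPM of a library sum to 919588.8 to 1054125.2. In libraries with the larger sums the deposited values are recorded as a scaled signal and were used in the same way. All values were whole multiples of 1 read (100% of values, within 0.01 reads), so reads were recovered for the filter and for count tests.

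Groups came from the sample labels. limma (version 3.58.1, R 4.3.3) was fitted to log2(CPM + 1) with all 34 libraries in 9 groups and an intensity trend, on the 9637 genes kept by edgeR's filter (edgeR 4.0.16) on recovered reads, with Benjamini-Hochberg adjustment over them and a threshold of 0.05. A fold change on this scale understates the change of low genes. The alternatives were edgeR and DESeq2 (version 1.42.0) on recovered reads, other pseudocounts, filters and scalings, a replicate block and leaving out each library. The fit was also run on simulated counts with independent libraries and the same relative spread between replicates for every gene. The real libraries differ in both respects, so that run cannot speak for genes with a wide spread. The 100 genes and the gene lists were chosen with earlier results of these data known. Genes were named by a rule (rank, the largest called changes in each comparison and listed markers), and *JhI-21*, *CD98hc*, *Dgp-1*, *Drip*, *kni*, *sn* and others were added after their values were seen. Gene positions are from the BDGP6.54.115 annotation, whose release may differ from the authors'.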

Additional observations from a re-analysis of the deposited data

Results flagged for a closer look

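In groups of 4 libraries, 22 of 175 sets of values examined held 1 library far from the other 3 by Dixon's criterion. Independent, normally distributed values meet it in about 1 of 20 groups. Most sets here were CPM, which are skewed toward high values in the spread group, and many genes share their high and low libraries. That rate therefore does not hold here, and the 22 cannot be set against it. The flagged values of the spread group were all high ones. *Fbp1* had 492 CPM in replicate 2 of 8 days (0.776 to 50.7 CPM in the others), 80.4 CPM in replicate 1 of 10 days (1.84 to 8.00) and 13.8 CPM in replicate 4 of 14 days (0.442 to 2.16). *Obp99b* had 71.1 CPM in replicate 1 of 10 days (1.31 to 6.12) and 21.7 CPM in replicate 1 of 14 days (0.245 to 1.77), and *Lsp2* 33.5 CPM in replicate 1 of 10 days (0.628 to 6.17). *Lsp1alpha* had 7.29 CPM in replicate 4 of 12 days (0.203 to 0.938). Replicate 1 of 14 days was also far above the rest for *DptA* (11.0 CPM, others 0.147 to 1.317), *Mtk* (6.14 CPM, others 0.147 to 0.354) and *TotA* (15.5 CPM, others 0.736 to 3.14), and replicate 3 of 4 days for *Mtk* (2.31 CPM, others 0.383 to 0.701) and *TotA* (33.7 CPM, others 6.90 to 8.59).

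Among genes outside the spread group, replicate 4 of 10 days was low for *mnd* (127.9 CPM, others 175 to 179) and *daw* (62.5 CPM, others 129 to 143). *mnd* was low in replicate 2 of 5 days (66.2 CPM, others 79.7 to 82.2) and *Drip* in replicate 2 of 12 days (398 CPM, others 556 to 587). *Dgp-1* was high in replicate 1 of 5 days (209 CPM, others 155 to 163), *Cht10* in replicate 3 of 4 days (123 CPM, others 100.2 to 103.5) and *kni* in replicate 4 of 4 days (61.1 CPM, others 39.9 to 42.4). In control discs of 5 days, *CG10365* was high in replicate 3 (1.89 CPM, others 0.719 to 0.821) and *Drip* in replicate 4 (33.9 CPM, others 32.5 to 32.6). The mean log2(CPM + 1) of the 75 genes was 5.605 in replicate 3 of 14 days, against 5.44 to 5.46 in the other libraries of that age.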

How the results depend on the processing

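Of 262 counts recomputed under alternatives, 251 stayed within 1.5 times their main value. A fit to only the groups compared called 46 of the 100 genes higher and 14 lower in 6 day relative to 5 day tumors, and 0 lower in 12 day relative to 10 day tumors. Scaling by library size alone called 6 lower in 10 day relative to 6 day tumors. Ranking by the lowest 8 day library kept 49 of the 100 genes. With a limit of 1 or 10 CPM at 8 days in place of 5, the ranking kept 67 or 79 of the 100. Leaving out 1 library at a time gave 7 to 22 genes lower and 0 to 1 higher at 12 days relative to 10 days, and kept 83 to 96 of the 100 genes in the ranking. Of 2429 values of named genes, 147 no longer passed the threshold and 0 changed sign. The causes were not tested. Values near 3 reads are limited by depth.

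With the replicate number as a block, the counts of genes called higher and lower were 45 and 30 in tumors against control discs at 5 days, 48 and 20 in 10 day tumors against 5 day control discs, 20 and 0 at 6 relative to 5 days, 35 and 10 at 10 relative to 6 days, 0 and 17 at 12 relative to 10 days, and 40 and 17 in control discs at 5 relative to 4 days. Libraries with the same number did not deviate together on average (mean r = -0.0119 over 129 pairs, against 0.00399 over 384 pairs of different numbers). Single pairs varied, with r over 0.1 for 27 of the 129 and a lowest r of -0.436. A mean over pairs cannot decide whether some of these libraries share a batch, since positive and negative pairs cancel.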
